A study of Saccharomyces cerevisiae with 2 samples.

Results

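The genes described here are named as protein parts of the mitochondrial ribosome of the yeast *Saccharomyces cerevisiae*. They were chosen by name, as every gene whose symbol is MRPL, MRPS, MRP or RSM followed by a number, with MRP8 left out. The rule found 65 of the 5699 genes of the deposited tables. By their names in the reference annotation, 37 were assigned to the large subunit and 28 to the small subunit, with the exception of *RSM22*. It has no name of a ribosomal protein there and was counted with the small subunit. All 65 had reads in both libraries, and all passed the filter on low values.

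The study compared the RNA of yeast strains. ZK2 is labelled a bioethanol strain, with no genotype given. BYZ1 is a diploid laboratory strain of the S288c background that carries *his3delta1*, *leu2delta0* and *ura3delta0* on both homologs and *lys2delta0* and *met15delta0* on a single homolog. Both were grown in 25 mL of YPD from an OD600 of 0.05, and poly(A) RNA was taken in early stationary phase. Per liter of medium, the labels list 10 g of yeast extract with 20 g each of peptone and glucose for ZK2, but 1 g of yeast extract with 2 g each of the others for BYZ1. The study's methods name a single recipe, which is the one on the ZK2 label, so whether the medium differed could not be settled, and medium and strain cannot be told apart. The methods describe the RNA of a sample as coming from several cultures, and they do not name ZK2. With 1 library per strain, the strains could not be compared by a test. The intervals below are 95% intervals that cover counting error only.

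The genes past the filter described next held 4554521 reads in the ZK2 library and 4666594 in the BYZ1 library. The strain labels were checked with the deleted markers. *URA3* had 123 reads in ZK2 and 0 in BYZ1, *LEU2* had 360 in ZK2 and 1 in BYZ1, and *HIS3* had 159 in ZK2 and 156 in BYZ1, with reads over 98.9% of its coding length in ZK2 and 67.4% in BYZ1. The ratio of ZK2 to BYZ1 is given as log2 of the RPKM (reads scaled to coding length in kilobases and to the gene reads of the library) plus 1 in each library. In 5080 genes the RPKM reached 10 in either library, and their median log2 ratio was -0.17. The ratios of single genes should be read beside that shift. The build named by the submitters, sacCer2, is of the S288c background that BYZ1 shares. Whether reads of ZK2 that differ from that sequence were lost was not tested. Scaling the libraries by the TMM factor in place of the totals would raise every log2 ratio by about 0.18, so the sign of a ratio between -0.18 and 0 depends on the scale.

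The mitochondrial ribosome translates the few mRNAs of the mitochondrial genome, most of which encode core subunits of the respiratory complexes and ATP synthase. Its rRNAs come from mitochondrial DNA, whereas nearly all of its proteins are encoded in the nucleus, made in the cytosol and imported. Many of them have counterparts in bacterial ribosomes, and others were gained in the mitochondrial lineage. In yeast, the mRNAs of these proteins are known targets of Puf3, an RNA-binding protein that recognises a short element in the 3′ untranslated region, guides mRNAs to the mitochondrial surface and promotes their decay when glucose is abundant. Early stationary phase follows the use of glucose, when yeast turns to respiration.

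The mRNAs of the mitochondrial ribosome were present at moderate levels, which were similar in the strains on the library totals. The median RPKM of the 65 genes was 40.6 in ZK2 and 38.9 in BYZ1, and that of all genes was 33.0 in ZK2 and 36.9 in BYZ1. The middle 50% of the members lay between 28.9 and 59.2 RPKM in ZK2 and between 25.8 and 62.0 in BYZ1, a narrower span than the 14.9 to 88.6 of all genes in ZK2 and their 16.9 to 90.1 in BYZ1. Together they took 9289 reads, or 0.203% of the library, in ZK2 and 9302 reads, or 0.198%, in BYZ1. Single members had 45 to 374 reads in ZK2 and 30 to 453 in BYZ1. The ratio of the summed reads, scaled to the library totals, was 1.02 (95% interval 0.995 to 1.05). Its log2 value was 0.034 on the totals but 0.21 with the TMM factor or the median of gene ratios as scale, so the likeness in level depended on the scale. Of the 65 members, 45 were above the median gene in ZK2 and 34 in BYZ1.

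The highest level belonged to *MRPS12*, which encodes uS12m, a protein of the decoding center. It had 173.8 RPKM in ZK2 (interval 157 to 193, 367 reads) and 207.4 in BYZ1 (449 reads). *MRPS18*, the gene of uS11m in the platform of the small subunit, followed with 108.4 RPKM in ZK2 and 108.6 in BYZ1. These were the only members above 100 RPKM in either library. Next in ZK2 came the large subunit genes *MRPL38* (uL14m) with 89.2 RPKM, against 55.8 in BYZ1, *MRPL36* (bL31m) with 82.8, against 69.5, and *MRPL51* (mL43) with 82.8, against 82.7. The intervals of these large subunit genes overlapped each other in ZK2, so their order was not resolved.

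*RSM22* had the lowest level in ZK2, at 10.1 RPKM (87 reads), against 13.7 in BYZ1 (121 reads). Its product resembles a methyltransferase and is known for a role in the assembly of the small subunit, and the annotation gives it no name of a ribosomal protein. *MRPS5*, which encodes uS5m of the small subunit body, had 14.4 RPKM in ZK2 and 15.0 in BYZ1. *MRPL40* (uL24m, near the exit of the peptide tunnel) had 17.6 in ZK2 and 25.8 in BYZ1, *MRPL11* (uL10m, at the base of the stalk) had 19.8 and 22.5, and *MRP13* (mS44) had 21.5 and 28.7. The highest member exceeded the lowest 17.2-fold in ZK2 and 18.1-fold in BYZ1. The order of the members was largely shared, with Pearson's r of 0.84 and Spearman's rho of 0.85 for log2 RPKM across the 65 genes, as a description of points that share the same pair of libraries, and 6 of the 10 highest genes were the same. Over 5066 genes past the filter with reads in both libraries, r was 0.87 and rho 0.87, so this likeness was not particular to the members.

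**Figure D1:**
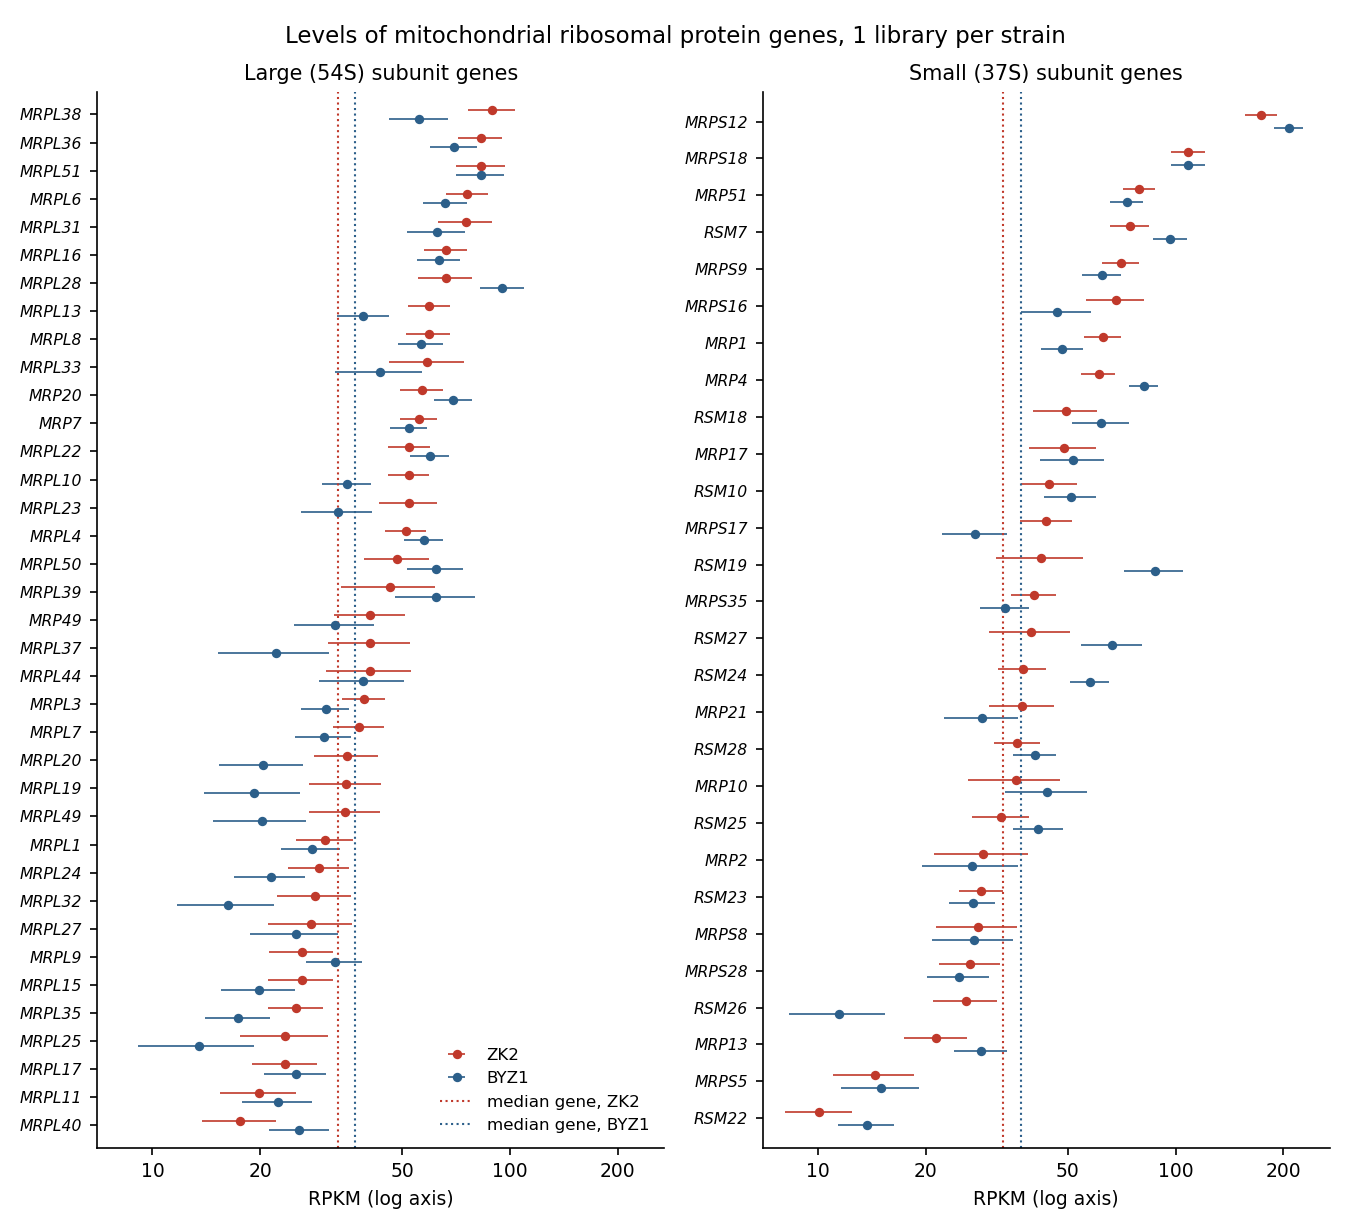
RPKM (log axis) of each large subunit gene (left panel) and small subunit gene (right panel), with 95% Poisson intervals of the read count, in ZK2 (red) and BYZ1 (blue), 1 library each; dotted lines mark the median of all genes, 33.0 RPKM in ZK2 and 36.9 in BYZ1. Most members sit near the median gene, *MRPS12* stands highest at 173.8 RPKM in ZK2 and 207.4 in BYZ1, and *RSM22* lowest in ZK2 at 10.1.

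A sequence feature was shared by nearly all of the members. The letters TGTANATA, the core of the Puf3 element, were searched on the coding strand in the 200 bases after the stop codon of each gene in the R64 reference. They were found in 64 of the 65 members (98.5%), against 834 of all 5684 protein-coding genes of the tables (14.7%), members included. All 37 large subunit genes and 27 of 28 small subunit genes held a match. The exception was *RSM22*, which had none within 300 bases either. The first match began 8 to 139 bases after the stop codon, with a median of 51 bases. Of the members, 12 held 2 matches and 1, *RSM19*, held 3. A window can run into the next gene, and a match is a description of the reference sequence, not proof of binding.

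The sites below show the core, which the search fixed, with the letters around it, which differ. They are from the gene with the highest level (*MRPS12*, chrXIV:694272-694295, minus strand), the genes past a log2 ratio of 1 in size (*RSM26*, chrX:619114-619137, plus strand, and *RSM19*, of whose 3 matches the middle one is shown, chrXIV:694999-695022, minus strand), and others of each subunit (*MRPL37*, chrII:741641-741664, plus strand; *MRPL4*, chrXII:1015470-1015493, plus strand; *MRPL13*, chrXI:450361-450384, minus strand; *MRP10*, chrIV:372583-372606, plus strand). *MRPL3* (chrXIII:323057-323080, plus strand) is shown for the only core with G at its variable letter. All are R64, 5′ to 3′ on the coding strand, with the matched core in capitals.
MRPS12: caacctttTGTAAATAgcaatgac
RSM26: ttatatacTGTAAATAgttttatt
RSM19: atatatcaTGTAAATAagatcaag
MRPL37: ggtatcctTGTAAATAaatatgtg
MRPL4: ctctctccTGTAAATAtatatata
MRPL13: taatatccTGTACATAtatatact
MRP10: catggcctTGTATATAcaaattaa
MRPL3: tgccatttTGTAGATAgagaactc

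Among the 78 matches of the members, the core read TGTAAATA 36 times, TGTATATA 24 times, TGTACATA 17 times and TGTAGATA once. The letter 2 bases before the core, known as a further contact of Puf3, was C in 51 of the 78 matches (65.4%), against 204 of 826 matches in other genes (24.7%). Among the sites printed above it was C in *RSM19*, *MRPL37*, *MRPL4*, *MRPL13* and *MRP10*, and another letter in *MRPS12*, *RSM26* and *MRPL3*.

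The same search showed where the feature ended. It matched all 12 measured genes of mitochondrial ribosomal proteins with other names, such as *IMG1* and *MNP1*, and all 13 genes of mitochondrial aminoacyl-tRNA synthetases. It also matched 14 of 18 translational activators of single mitochondrial mRNAs, 9 of 12 mitochondrial translation factors and 6 of 8 genes of ribosome assembly and rRNA maturation. In contrast, it matched 6 of 38 nuclear genes of the respiratory complexes and ATP synthase (15.8%) and 6 of 138 genes of the cytosolic ribosome (4.35%).

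**Figure D2:**
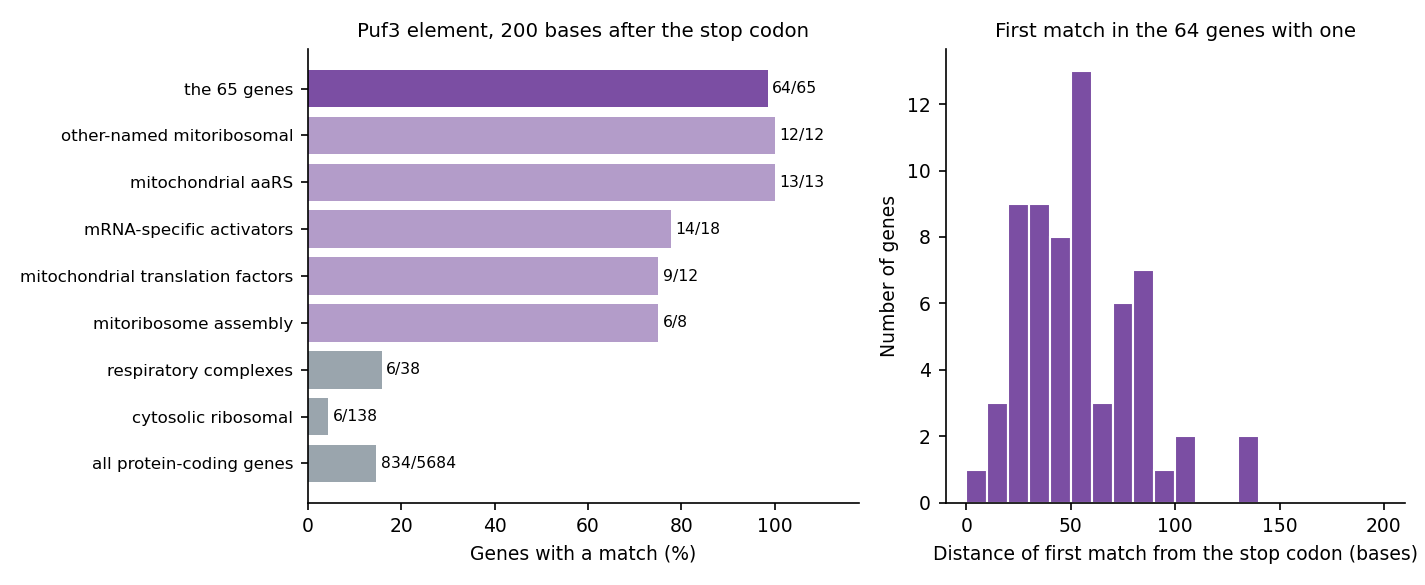
Left, percent of genes in each list with the Puf3 core within 200 bases after the stop codon in R64, with counts beside the bars; right, number of genes by the distance in bases from the stop codon to the first match. The 65 genes stand at 98.5% beside 14.7% of all protein-coding genes, and the median first match lay 51 bases from the stop codon.

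A search of the promoters was limited to 3 known elements. In the 250 bases before the start codon, on both strands, CCAAT (the site of the Hap complex, which activates respiratory genes) was present in 19 of 65 members (29.2%), in 35.7% of all genes and in 32 of 38 genes of the respiratory complexes (84.2%). AATTTT, the core of an element of ribosome assembly genes, was present in 24 members (36.9%) and 49.6% of all genes, and GCGATGAG, an element of the same genes, in 3 members (4.62%) and 4.03% of all genes. CCAAT and AATTTT can share letters where they meet, and the absence of a match says only that they are not in this window.

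Between the strains, 2 of the 65 genes (3.08%) passed a log2 ratio of 1 in size, against 18.2% of all genes. The share was 1 member higher, beside 7.91% of all genes, and 1 member lower, beside 10.3%. These counts depended on the settings. With the TMM factor or the median of gene ratios as scale, *RSM26* and *MRPL37* were higher and no member was lower, while the split over all genes turned to 535 higher and 346 or 341 lower, against 402 and 524. With a pseudocount of 5 no member passed, and 332 of all genes were higher and 366 lower. Members have fewer reads than many genes, so they were also set beside the 2952 other genes past the filter with a mean read count in their range, of which 16.2% passed. The middle 50% of the members' ratios lay between -0.25 and 0.38, and that of these other genes between -0.61 and 0.27. The members thus spread less than genes of like read count, a difference that was not tested with 1 library per strain. On the library totals, the counting interval of the ratio lay above 1 for 17 members (26.2%, and 27.0% of all genes). It lay below 1 for 11 members (16.9%, and 44.1% of all genes). Of the 2952 other genes of like read count, it lay above 1 for 655 and below 1 for 1234. The TMM factor would multiply every ratio by 1.13, so these counts too depend on the scale.

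The median log2 ratio of the members was 0.09, which is 0.26 above the median of all genes, and 39 of 65 were above 0, against 40.2% of all genes. Relative to the median of all genes, 46 of 65 members were higher.

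*RSM26* was the member furthest up in ZK2. It encodes mS42, a small subunit protein with the fold of a superoxide dismutase, and lies on chromosome X at 618223-619023 (sacCer2, plus strand) as a single coding exon. It had 95 reads in ZK2 and 43 in BYZ1, or 25.9 RPKM in ZK2 (interval 21.0 to 31.7) and 11.5 in BYZ1 (8.29 to 15.4), a log2 ratio of 1.11 and a ratio of 2.27 (1.56 to 3.33). *MRP1*, the gene of the related protein mS43, had 277 reads in ZK2 and 218 in BYZ1, and its ratio was 1.30 (1.09 to 1.56). Thus both genes of this pair had more reads in ZK2, to unequal degrees.

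*RSM19* was the member furthest down. It encodes uS19m of the small subunit head and lies on chromosome XIV at 695055-695330 (sacCer2, minus strand), a single coding exon. It had 53 reads in ZK2 and 113 in BYZ1, or 42.0 RPKM in ZK2 (31.5 to 55.0) and 87.4 in BYZ1 (72.0 to 105), a log2 ratio of -1.04 and a ratio of 0.481 (0.340 to 0.672). It no longer passed the threshold when scaled by TMM or by the median gene ratio, or with a pseudocount of 5. Its downstream neighbor is *MRPS12*, on the same strand with 229 bases and no gene between them in R64, which had a ratio of 0.838 (0.728 to 0.964). The ratios of these neighbors did not overlap in their intervals.

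After *RSM26*, the highest log2 ratios belonged to large subunit genes. *MRPL37* (mL54) had 59 reads in ZK2 and 33 in BYZ1, a log2 ratio of 0.85. *MRPL19*, which encodes uL11m at the base of the stalk where translation factors bind, had 76 reads in ZK2 and 43 in BYZ1 (0.83). *MRPL32* encodes bL32m, whose maturation by a protease of the inner membrane is known as a step in building the ribosome, and it had 72 reads in ZK2 and 42 in BYZ1 (0.78). *MRPL25* (mL59) had 51 reads in ZK2 and 30 in BYZ1 (0.76). The intervals of all these ratios lay above 1 and overlapped each other, so no order among them was resolved.

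At the other end stood *RSM27*, *RSM24*, *MRPL40* and *MRPL28*. *RSM27* (mS33) had 60 reads in ZK2 and 104 in BYZ1, a log2 ratio of -0.74. *RSM24* (mS35) had 164 reads in ZK2 and 259 in BYZ1 (-0.61). *MRPL40* had 72 reads in ZK2 and 108 in BYZ1 (-0.52), and *MRPL28*, which encodes mL40 of the central protuberance, had 134 in ZK2 and 198 in BYZ1 (-0.52). The intervals of these 4 ratios lay below 1 on the library totals. That of *MRPL40* reached 0.930, so whether it excludes 1 depends on the scale.

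*RSM24* lies on chromosome IV at 813191-814150 (sacCer2, minus strand), inside the segment that the array hybridization of the study listed as amplified in BYZ1. That array set BYZ1 against the bioethanol strain YJS329, and the copy number of the segment in a strain named ZK2 was not stated. Of the 32 measured genes of that segment past the filter, 29 had a log2 ratio below 0, and their median was -0.95. The part of the amplification in the value of *RSM24* was not tested. No other member lies in the segment, and without *RSM24* the median log2 ratio of the members was 0.09.

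**Figure D3:**
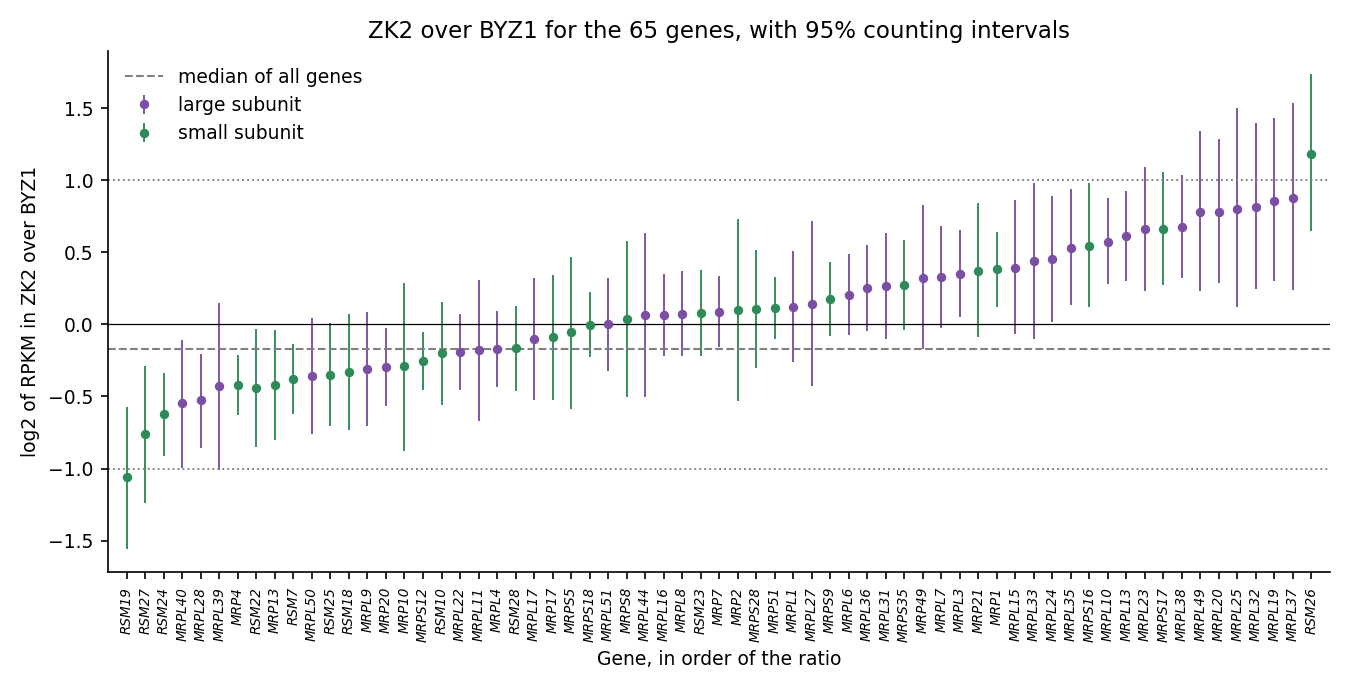
Log2 of the ratio of RPKM in ZK2 over BYZ1 for each of the 65 genes, in order of the ratio, with 95% counting intervals, large subunit genes in violet and small subunit genes in green; the dashed line is the median of all genes (-0.17) and dotted lines mark 1 and -1. Only *RSM26* and *RSM19* lie past the dotted lines, and the violet points gather on the right.

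The subunits were shifted against each other. The large subunit genes had a median log2 ratio of 0.25 (27 of 37 above 0), and the small subunit genes one of -0.07 (12 of 28 above 0), although the small subunit value turned positive (0.10) when the libraries were scaled by the TMM factor or by the median of gene ratios. Relative to the median of all genes, 30 of 37 large subunit genes and 16 of 28 small subunit genes were higher. The large subunit genes took 4884 reads in ZK2 and 4494 in BYZ1, a scaled ratio of 1.11 (1.07 to 1.16). The small subunit genes took 4405 in ZK2 and 4808 in BYZ1, a scaled ratio of 0.939 (0.902 to 0.979). Without *RSM22* and *RSM24* the small subunit ratio was 0.962 (0.922 to 1.004), an interval that included 1. With the TMM factor, log2 of the summed-read ratio of the small subunit was 0.086, so its direction depended on the scale.

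The ratio of large to small subunit reads within a library does not depend on the scale between libraries. It was 1.11 in ZK2 and 0.935 in BYZ1, and the first divided by the second gave 1.19 (conditional interval 1.12 to 1.26). Leaving out *MRPS12*, the member with the most reads over both libraries, gave 1.17 (1.11 to 1.24), and leaving out *RSM24* gave 1.17 (1.10 to 1.24). The median RPKM of the large subunit genes was 40.7 in ZK2 and 33.0 in BYZ1, and that of the small subunit genes 39.8 in ZK2 and 45.2 in BYZ1. The subunits thus had nearly equal median levels in ZK2, and the large subunit median was the lower one in BYZ1. With 1 library per strain it was not tested whether the shift exceeds the spread between cultures.

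Proteins of the same ribosome that bear other names were outside the rule and had medians of the same sign by subunit on the library totals. Of 13 listed genes 12 were measured, and their median RPKM was 52.7 in ZK2 and 50.1 in BYZ1. The 7 large subunit genes had a median log2 ratio of 0.18 (5 above 0), and the 5 small subunit genes one of -0.18 (1 above 0). That small subunit median was the value of *FYV4*, with 35 reads in ZK2 and 41 in BYZ1. Relative to the median of all genes it was -0.011, whereas the small subunit median of the members was 0.10. The highest were *MNP1*, the gene of bL12m of the stalk, with 191 reads in ZK2 and 103 in BYZ1 (log2 ratio 0.91), and *RTC6* (bL36m), with 161 in ZK2 and 98 in BYZ1 (0.74). The lowest were *EHD3*, which encodes mS47, an enzyme of valine breakdown that is also a ribosomal protein, with 659 reads in ZK2 and 985 in BYZ1 (-0.54), and *PET123*, with 119 in ZK2 and 145 in BYZ1 (-0.24). Their large-to-small read ratio was 1.12 in ZK2 and 0.706 in BYZ1, a quotient of 1.58 (1.41 to 1.77) that was 1.29 (1.11 to 1.50) without *EHD3*. The ratio of their median RPKM, large to small, was 1.64 in ZK2 and 1.70 in BYZ1, so this measure did not share the direction of the summed reads.

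**Figure D4:**
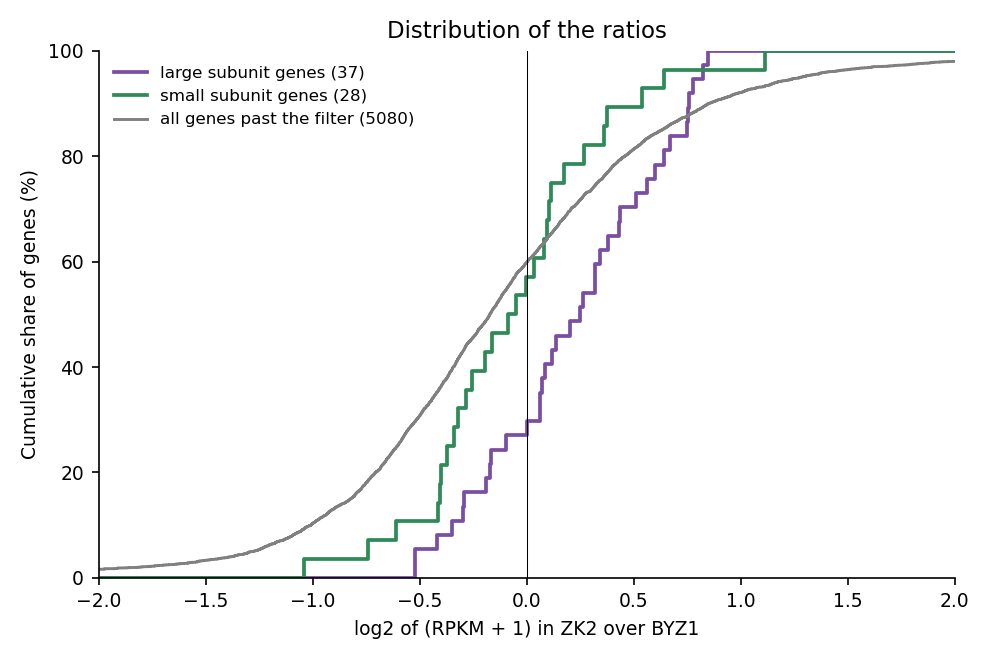
Cumulative share of genes (%) by log2 ratio of ZK2 over BYZ1, for large subunit genes (violet, 37), small subunit genes (green, 28) and all 5080 genes past the filter (grey). Both member curves are steeper than that of all genes, and the large subunit curve lies to the right of the small subunit curve up to about its end, with medians of 0.25 and -0.07.

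Members with bacterial counterparts had the higher median level. The 40 genes of this class had a median RPKM of 49.0 in ZK2 and 51.3 in BYZ1, and the 24 genes of proteins gained in mitochondria had one of 36.7 in ZK2 and 32.9 in BYZ1. Their median log2 ratios were 0.08 for the bacterial class and 0.20 for the mitochondrial class. The split by subunit was seen in both classes. Among large subunit genes 15 of 23 of bacterial type and 12 of 14 of mitochondrial type were above 0, with medians of 0.12 and 0.33. Among small subunit genes 8 of 17 of bacterial type and 4 of 10 of mitochondrial type were above 0, with medians of -0.0033 and -0.22. *RSM22* was counted in neither class.

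Within the subunits, members were also grouped by their place in the ribosome, an assignment made after the values had been seen. The small subunit groups hold only proteins of bacterial type, and members such as *RSM27*, *RSM24* and *RSM23* were put in no group. The ratios are therefore those of the grouped genes, not of whole regions. In the small subunit head, *RSM19*, *RSM7* (uS7m), *RSM10* (uS10m), *MRP2* (uS14m) and *MRPS9* (uS9m) summed to 745 reads in ZK2 and 884 in BYZ1, a scaled ratio of 0.864 (0.783 to 0.954). *RSM7* contributed 253 reads in ZK2 and 337 in BYZ1. *MRPS9* had 269 in ZK2 and 244 in BYZ1, so the head genes did not share a direction. The 6 body genes had a scaled ratio of 1.03 (0.934 to 1.13) and the 4 platform genes one of 0.984 (0.878 to 1.10).

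In the large subunit, the 6 genes at the exit of the peptide tunnel had a scaled ratio of 0.983 (0.906 to 1.07), with 1148 reads in ZK2 and 1197 in BYZ1. Within them *MRPL13* (mL50), with 216 reads in ZK2 and 145 in BYZ1, stood against *MRPL40* and *MRP20*, the gene of uL23m with 205 reads in ZK2 and 258 in BYZ1. The 6 genes of the central protuberance had a scaled ratio of 1.06 (0.967 to 1.16), and the 3 stalk genes *MRPL1*, *MRPL11* and *MRPL19* one of 1.15 (0.963 to 1.38). The intervals of all these large subunit groups included 1 on the library totals. The TMM factor would multiply these ratios and those of the small subunit groups by 1.13, so which intervals include 1 depends on the scale.

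The members are scattered over 14 chromosomes, with at most 12 on a chromosome. Their median coding length was 714 bases, against 1230 for all genes, and ranged from 213 to 1887 bases, the longest being *RSM22*. *MRPL44* (mL53) was the only member with an intron, against 5.08% of all protein-coding genes. It had 40.5 RPKM in ZK2 and 38.8 in BYZ1. The open reading frames of *MRPL51*, *MRPL19* and *MRP4* overlap another annotated gene in R64, by 323, 113 and 2 bases. None of those partners is listed in either table, and the counting is not stated to use strand, so reads of these members and of their partners cannot be told apart. The listed length of *RSM23* (mS29) is 1467 bases, whereas its coding length in R64 is 1353, so its RPKM of 28.6 in ZK2 and 27.1 in BYZ1 rests on the longer model.

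Other lists of mitochondrial gene expression had lower median levels than the ribosomal proteins, although single genes stood above them. The 12 translation factors had a median RPKM of 15.6 in ZK2 and 18.3 in BYZ1. The median log2 ratio of the 9 past the filter was 0.08, with none past 1 in size, but it was -0.12 over all 12 with no filter. Only *GTF1*, *MEF2* and *TUF1* reached 50 RPKM, and their median of -0.73 was the value of *MEF2*. The highest of the 12 were *RRF1*, the ribosome recycling factor, with 34 reads in ZK2 and 16 in BYZ1 (log2 ratio 0.99), and *TUF1*, the elongation factor Tu, with 1792 in ZK2 and 1080 in BYZ1 (0.76). At 298 RPKM in ZK2 and 175 in BYZ1, *TUF1* was above every member in ZK2. The lowest were *GTF1* (-0.89), with 255 reads or 101 RPKM in ZK2 and 486 reads or 188 RPKM in BYZ1, and *PET112* (-0.78), with 69 in ZK2 and 127 in BYZ1. Both were counted in this list although they encode subunits of the amidotransferase that makes glutaminyl-tRNA in mitochondria. The gene of its other subunit, *HER2*, had 50 reads in ZK2 and 41 in BYZ1 (0.28). *HER2* stayed below the filter of 10 RPKM in both libraries, and the interval of its ratio, 0.811 to 1.94, included 1.

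The 18 translational activators of single mitochondrial mRNAs had a median RPKM of 15.5 in ZK2 and 18.4 in BYZ1, and a median log2 ratio of 0.06 over 12 genes past the filter. *MSS51*, an activator for *COX1*, had 652 reads or 109 RPKM in ZK2 and 342 reads or 55.7 RPKM in BYZ1 (0.95). *MBA1*, counted in this list although its product holds the ribosome at the inner membrane, had 148 reads in ZK2 and 81 in BYZ1 (0.87). *PET122* (-0.77) and *PET494* (-0.72), activators for *COX3*, were lowest, with 42 and 233 reads in ZK2, against 76 and 399 in BYZ1. The 13 mitochondrial aminoacyl-tRNA synthetases had a median RPKM of 10.4 in ZK2 and 12.7 in BYZ1. Their median log2 ratio was -0.14 over 12 genes, and 1 passed a log2 ratio of 1. This was *MST1*, for threonine, with 66 reads in ZK2 and 30 in BYZ1 (1.02), followed by *MSW1*, for tryptophan (0.91). *DIA4*, for serine (-0.77), and *NAM2*, for leucine (-0.62), were lowest.

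The 8 genes of ribosome assembly and rRNA maturation had a median log2 ratio of 0.05 over 6 genes past the filter and of -0.15 with no filter. *MRM2*, a methyltransferase of the large rRNA, had 293 reads in ZK2 and 211 in BYZ1 (0.50), and *MSS116*, an RNA helicase, had 224 in ZK2 and 167 in BYZ1 (0.44). *MRM1*, another methyltransferase of that rRNA, had 76 reads in ZK2 and 156 in BYZ1 (-0.95), and *GEP3*, a GTPase, had 94 in ZK2 and 143 in BYZ1 (-0.53).

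The gene of Puf3 itself was among 7 measured regulators of mitochondrial or ribosomal genes. *PUF3* had 418 reads in ZK2 and 591 in BYZ1, or 34.6 RPKM in ZK2 and 47.8 in BYZ1, a log2 ratio of -0.45. *HAP4*, the activating subunit of the Hap complex, had 1054 reads in ZK2 and 2363 in BYZ1, a log2 ratio of -1.12, the only regulator past 1 in size. *HAP1*, a heme-responsive activator, had 2838 reads in ZK2 and 4538 in BYZ1 (-0.64). The study states that a Ty1 insertion inactivates the Hap1 protein of BYZ1, so its mRNA level there is not a measure of its activity. *HAP5* (0.31) and *SFP1* (0.10), an activator of ribosome genes, were the highest. Over all genes past the filter, the 765 with the Puf3 core after the stop codon, members included, had a median log2 ratio of -0.10, and the 4307 without it one of -0.18.

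The ribosome of the cytosol and the respiratory complexes were set beside the members for scale. The 138 cytosolic ribosomal protein genes had a median RPKM of 282 in ZK2 and 301 in BYZ1 and a median log2 ratio of -0.15, and 10.1% of them passed a log2 ratio of 1 in size, with 5 higher and 9 lower. *RPL18B* (2.67) and *RPL4B* (1.85) were highest and *RPL17B* (-1.70) and *RPS6A* (-1.37) lowest. Most of these genes have a nearly identical copy, and only uniquely mapped reads were counted, so their values are uncertain. The 38 genes of the respiratory complexes and ATP synthase had a median RPKM of 987 in ZK2 and 1012 in BYZ1 and a median log2 ratio of 0.06. *COX7* (1.25) and *ATP20* (1.19), small subunits of cytochrome oxidase and ATP synthase, were highest, and *COX5B* (-1.05), the hypoxic form of a cytochrome oxidase subunit, and *QCR7* (-0.88) were lowest.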

How the data were processed

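Poly(A) RNA of 1 library each of ZK2 and BYZ1 was sequenced by the authors, and a gene table per strain was deposited. The authors removed low-quality and adapter reads and aligned the rest to gene sequences with SOAPAligner, as the methods state for the study's strains. For ZK2 the aligner is not stated. The build is sacCer2, from the processing notes of the submitters. The read count of a gene in the deposited tables is that of uniquely mapped reads, and the deposited RPKM divides it by coding length and by the total of gene reads. The deposited percent coverage of a gene is the authors' own. A gene absent from a table has 0 reads.

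The comparison was the log2 ratio of RPKM plus a pseudocount of 1, ZK2 over BYZ1, for genes that reached 10 RPKM in either library, and a log2 ratio of 1 in size counted as past the threshold. The pseudocount makes the change of low genes look smaller. Levels carry exact Poisson 95% intervals, ratios exact conditional (Clopper-Pearson) intervals, and quotients of 2 ratios the conditional interval of the odds ratio. Sequences were read from the R64 reference by gene identifier. Protein sequences were not analysed here. The members and the gene lists were chosen with earlier results of these data known. Every member may be named. Reads are given for the extremes of level and of ratio, and in each list the 2 highest and 2 lowest ratios are named. Alternatives were the TMM factor (edgeR 4.0.16), the median of gene ratios, totals without the 10 genes of highest RPKM in either library, pseudocounts of 0.1 and 5, no filter, an RPKM of 50 as the filter, and windows of 100 and 300 bases. The steps were tested on simulated data. Python 3.11.15 with scipy 1.17.1 was used.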

Additional observations from a re-analysis of the deposited data

How the results depend on the processing

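No paired analysis was possible because each strain has 1 library, and for the same reason no library was left out. The intervals hold counting error, and the spread between cultures is unknown. The large subunit median stayed above the small subunit median under all 7 alternatives of scale, pseudocount and filter, and the members' median stayed above that of all genes under all 7.

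The TMM factor and the median of gene ratios raised every ratio. With the TMM factor the median log2 ratio was -0.0015 for all genes, 0.26 for the members, 0.42 for the large subunit and 0.10 for the small subunit, and log2 of the summed-read ratio was 0.21, 0.33 and 0.086 for the members, the large and the small subunit. With the median of gene ratios the medians were 0.00072, 0.26, 0.42 and 0.10, and the summed-read values 0.21, 0.33 and 0.088. Under both, 2 members were higher by a log2 ratio of 1 (*RSM26* and *MRPL37*, the second at 1.02) and 0 were lower, since *RSM19* no longer passed. Of all genes 535 were higher under both, against 402, and 346 and 341 were lower, against 524.

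In the same order of settings the list medians were 0.027 and 0.030 for cytosolic ribosomal proteins, 0.026 and 0.028 for the synthetases, 0.12 and 0.13 for ribosomal proteins with other names, 0.22 and 0.22 for assembly, 0.25 and 0.25 for translation factors, -0.14 and -0.14 for the regulators, 0.23 and 0.24 for the respiratory complexes, and 0.23 and 0.23 for the activators.

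Totals without the genes of highest RPKM gave a median RPKM of the members of 47.1 in ZK2 and 45.4 in BYZ1. The median of all genes was -0.18 with these totals, -0.18 with a pseudocount of 0.1, -0.15 with a pseudocount of 5, -0.18 with no filter and -0.12 at an RPKM of 50. A pseudocount of 5 left 0 members higher and 0 lower, so *RSM26* and *RSM19* no longer passed, and 332 of all genes higher and 366 lower. With no filter the medians were -0.15 for assembly and -0.12 for translation factors. The filter at 50 kept 32 members, with medians of -0.0014 for the members, 0.080 for 18 large subunit genes and -0.22 for 14 small subunit genes, which are 0.12, 0.20 and -0.11 relative to all genes. It left 0 members higher, 274 of all genes lower, and a translation factor median of -0.73, which was the value of *MEF2*. Lists left with fewer than 3 genes (the synthetases, assembly and the activators) have no value there.

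Leaving out *EHD3*, an alternative chosen after seeing the data like those without *MRPS12*, *RSM22* and *RSM24*, gave 1.29 for the quotient of the other-named proteins. The Puf3 core was found in 90.8% of members and 10.6% of all genes within 100 bases, and in 16.8% of all genes within 300 bases.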
